A study of Drosophila melanogaster with 42 samples.

Results

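The genes described here are those that build the light response of the Drosophila photoreceptor. A set of 35 genes was defined by name, and a probe belonged to it when its symbol in the platform's gene table, or the current name of that gene, was on the list. Of these, 25 genes had a probe, and 3 of them had 2, which gave 28 probes of the 16320 on the array and 25 of the 12165 genes named for a probe. Galphaq was measured by probes 8803 and 11523, rdgC by probes 7279 and 15689, and rtp by probes 559 and 4509. The opsin genes ninaE, Rh2, Rh3, Rh4, Rh5 and Rh6, together with ninaA, ninaC, norpA and eys, had no probe under these names and were not analysed here. The paper lists norpA, ninaA and ninaC among genes it found regulated downstream of dsx, so its arrays did measure them. The 25 genes lie on both arms of chromosomes 2 and 3, apart from rdgA and rdgB, which are X-linked.

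In the fly eye, light converts rhodopsin to metarhodopsin, which acts through a Gq protein on phospholipase C and opens the TRP and TRPL cation channels of the rhabdomere, the stacked microvilli that hold the pigment. The scaffold protein INAD binds the channel, protein kinase C (inaC) and phospholipase C in a complex, and arrestins switch metarhodopsin off. The chromophore is made from dietary carotenoids by uptake receptors, an oxygenase and dehydrogenases that work in neighbouring tissues as well as in the photoreceptor.

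The series compared adult heads, and the dissected central nervous system (CNS), between the sexes and between wild type and mutants of the somatic sex determination pathway, to find genes that act downstream of tra, dsx and fru. Each of the 42 arrays carried 2 RNAs on 1 spotted oligonucleotide slide, and the deposited value was the log2 ratio of the 2 dyes. Flies for heads were 0 to 24 h old by the labels and 8 to 24 h when frozen by the protocol. For CNS, the titles give 0 to 24 h on the fru arrays and no age on the sex arrays. A sample held about 100 heads or 20 CNS. Ratios are given here as males over females and as mutant over wild type, so a value above 0 is higher in males or in the mutant.

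Sex was compared in Canton S heads (4 arrays), in Berlin heads (4 arrays) and in Canton S CNS (4 arrays). Canton S females were the partner of chromosomally XX tra pseudomales, which carried tra1 over the deficiency Df(3L)st-j7, and of XX dsxD pseudomales, which carried dsxD and Sb over dsx m+r15 (4 head arrays each). Both pseudomales had w on 1 X chromosome and y, w with a P[w+cM, ubi-gfp] insertion on the other. Animals without dsx function, dsx d+r3 over dsx m+r15, were compared as XX intersexes with Canton S females and as XY intersexes with Canton S males (4 head arrays each). The XX intersexes also carried the X chromosome with y, w and the ubi-gfp insertion. tra pseudomales splice both dsx and fru in the male way, dsxD animals make male DSX protein, and the intersexes make neither form of DSX. Males with fru 4-40/p14, a combination that also removes transcripts of the fru P2 promoter, were compared with Canton S males (4 head and 3 CNS arrays). Males with w and fru w12/Cham5 were compared with w Berlin males (4 head and 3 CNS arrays). These wild types are those of the channel labels. The array titles name w Berlin for fru 4-40/p14 heads and CNS, and Canton S for fru w12/Cham5 CNS. Each fru combination was made of overlapping deficiencies, so genes next to fru may be present in 1 copy. By the channel labels, Canton S was thus the wild type of 5 of the 6 mutants measured in heads. The mutants were not stated to share its genetic background. Mutation and stock cannot be told apart in any of these 5 comparisons. Since they use the same control strain, their values are given side by side, and a gene called in several of them is not independent support.

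Each array gave 5881 to 11900 values, and the 28 probes had a value in 93.2% of their head spots and 90.4% of their CNS spots, against 55.9% and 54.4% for all probes. The files hold ratios without intensities, so the level of a gene, and the level of any marker, was not available. Yp1, a yolk protein gene of females, was lower in males, tra and dsxD pseudomales than in females on all 20 arrays, and fru was lower in fru mutants on all 8 head arrays. On the 1 fru 4-40/p14 head array with a value for Yp1, it was 4.53 above Canton S males. One Canton S sex array, replicate 3, had the widest spread of values of the 8 sex arrays of heads (SD 0.57 against 0.30 to 0.44 for the others). A probe was tested when at least 75% of a comparison's arrays had a value, with limma's moderated test of the mean log2 ratio, and was called at an adjusted p under 0.15, the threshold of the study's own false discovery control. Errors are the standard errors of that fit. The paper's methods describe the samples of each experiment as independent biological samples. The labels number the arrays as replicates without saying that the flies came from separate cultures, so p-values measure the spread between these arrays.

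Many photoreceptor genes were called higher in the heads of each mutant that was compared with Canton S. In tra pseudomales 14 of 28 probes were called higher and 1 lower, where 9.55% of all tested probes were called, 5.04% higher and 4.51% lower. In dsxD pseudomales 11 of 28 were higher and 0 lower (all tested probes 5.97%, higher 3.36%). XX intersexes without dsx had 19 of 26 higher and 1 lower (all tested probes 21.5%, higher 11.7% and lower 9.74%). XY intersexes had 19 of 27 higher and 1 lower (all tested probes 25.7%, higher 13.4% and lower 12.4%). The shares of the set that were called, 53.6%, 39.3%, 76.9% and 74.1%, were each above the share of all probes. By the methods' t-test with Benjamini-Hochberg adjustment, 3 probes of the set were called in tra, 6 in dsxD, 18 in XX intersexes and 16 in XY intersexes.

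Males with fru 4-40/p14 had 12 of 26 probes higher and 2 lower than in Canton S males (all tested probes 20.2%, higher 9.74% and lower 10.5%). In fru w12/Cham5 males, compared with w Berlin males, 4 of 27 were higher and 4 lower (all tested probes 17.0%, higher 8.76% and lower 8.21%). The median over the tested probes was 0.58 in tra, 0.40 in dsxD, 0.90 in XX intersexes, 0.67 in XY intersexes, 0.27 in fru 4-40/p14 and -0.0030 in fru w12/Cham5. Over all tested probes the medians of these comparisons lay between -0.027 and 0.0099. In RNA from whole heads, a larger number of photoreceptor cells and more RNA per cell cannot be told apart.

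**Figure D1:**
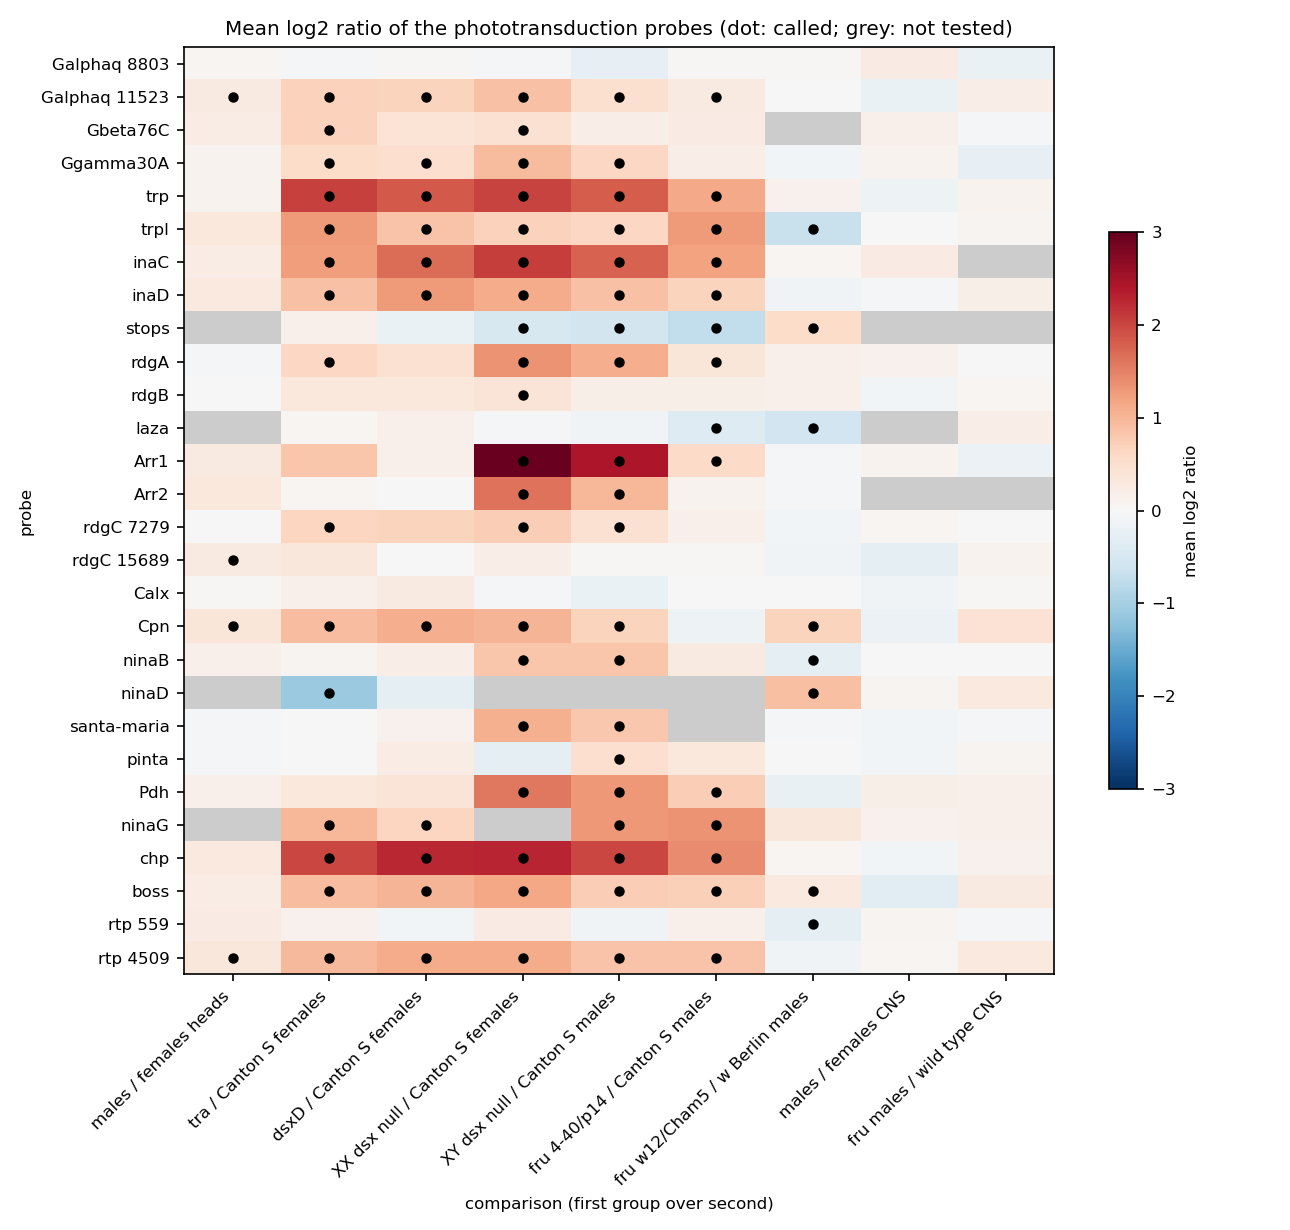
Mean log2 ratio (colour) of the 28 probes (rows, ordered by role) in 9 comparisons (columns, first group over second), with a dot where limma called the probe and grey where it was not tested. Red prevails in the 5 columns that have Canton S as wild type in heads, up to 2.96 for Arr1 in XX intersexes, while the fru w12/Cham5 column holds both colours and the 2 CNS columns hold no dot.

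The shift was visible on single arrays. In tra, the median ratio over the probes was 0.70, 0.36, 0.57 and 0.21 on the 4 arrays, and in dsxD it was 0.66, 0.48, 0.28 and 0.43. XX intersexes gave 0.91, 0.95, 1.01 and 0.80, and XY intersexes gave 0.62, 0.80, 0.60 and 0.63. All 16 medians were above 0, and those of the XX intersexes were above every tra and dsxD array. In fru 4-40/p14 the medians were 0.25, 0.15, 0.42 and 0.43. Those of fru w12/Cham5 were -0.017, 0.11, -0.13 and 0.038, on both sides of 0 and each below the lowest fru 4-40/p14 array.

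**Figure D2:**
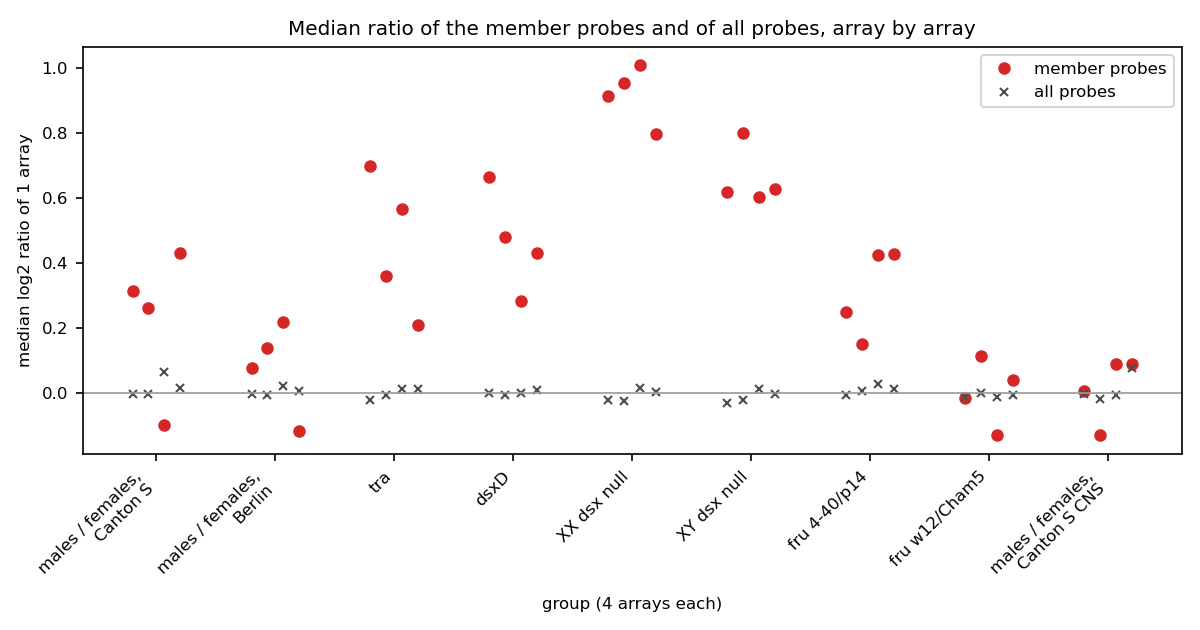
Median log2 ratio of the member probes (red circles) and of all probes (crosses) on each array, for the 8 head groups and the Canton S CNS sex comparison (4 arrays each). The member medians of the 4 XX intersex arrays lie between 0.80 and 1.01, while the medians of all probes stay within 0.08 of 0 on every array shown.

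The channel complex held some of the highest ratios. trp, the main light-activated channel, read 2.51, 2.20, 1.92 and 1.56 on the 4 tra arrays, a mean of 2.05 ± 0.16 (4.14-fold, adjusted p = 0.000157). In dsxD it read 2.43, 1.80, 1.79 and 1.37, with a mean of 1.85 ± 0.17 (3.60-fold, adjusted p = 0.00366). Every one of these 8 values was above 1. In XX intersexes trp read 2.41, 2.63, 1.72 and 1.36, a mean of 2.03 ± 0.21 (4.08-fold, adjusted p = 0.00137), and in XY intersexes 2.13, 2.33, 1.39 and 1.38, a mean of 1.81 ± 0.18 (3.50-fold, adjusted p = 0.00137). Its fru 4-40/p14 arrays read 1.24, 1.09, 1.21 and 0.98, with a mean of 1.13 ± 0.096 (2.19-fold, adjusted p = 0.000554). The fru w12/Cham5 arrays read -0.53, 0.31, 0.75 and 0.0013, on both sides of 0, with a mean of 0.13 ± 0.18 (adjusted p = 0.719) and a 95% interval of -0.29 to 0.55.

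trpl, the second channel subunit, was called in all 6 mutants, upward in the 5 compared with Canton S. Its values were 1.59, 0.95, 1.39 and 1.13 in tra, with a mean of 1.27 ± 0.14 (2.41-fold, adjusted p = 0.000936), and 0.85, 0.95, 0.71 and 0.88 in dsxD, with a mean of 0.85 ± 0.097 (1.80-fold, adjusted p = 0.00787). XX intersexes read 0.44, 1.22, 0.27 and 0.86, a mean of 0.69 ± 0.16 (1.62-fold, adjusted p = 0.0392), and XY intersexes 0.58, 1.15, 0.60 and 0.18, a mean of 0.63 ± 0.16 (1.55-fold, adjusted p = 0.0446). The intersex means were below that of tra, though their arrays overlapped with those of tra and the difference was not tested. The fru 4-40/p14 arrays of trpl read 0.58, 1.45, 1.58 and 1.49, a mean of 1.27 ± 0.17 (2.42-fold, adjusted p = 0.00387), with replicate 1 well under the other arrays. Against w Berlin, fru w12/Cham5 was lower on all 4 arrays, at -0.80, -0.33, -0.74 and -0.80, with a mean of -0.67 ± 0.11 (1.59-fold lower, adjusted p = 0.0108).

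inaC, the eye-specific protein kinase C, read 1.45, 1.09, 1.80 and 0.68 in tra (mean 1.26 ± 0.18, 2.39-fold, adjusted p = 0.0039) and 1.81, 1.89, 1.53 and 1.46 in dsxD (mean 1.67 ± 0.11, 3.19-fold, adjusted p = 0.000977). On the 3 XX intersex arrays with a value it read 2.36, 2.22 and 1.65, a mean of 2.08 ± 0.16 (4.21-fold, adjusted p = 0.000904), and in XY intersexes 1.77, 1.88, 1.69 and 1.72, a mean of 1.77 ± 0.096 (3.40-fold, adjusted p = 0.000117). The XY values were close together and all groups with a call lay above 0. In fru 4-40/p14 it read 1.12, 0.89, 1.40 and 1.44, a mean of 1.21 ± 0.12 (2.31-fold, adjusted p = 0.00108), and in fru w12/Cham5 0.0017, 0.20, 0.015 and -0.0073, a mean of 0.052 ± 0.093 (adjusted p = 0.785). These last 2 groups did not overlap.

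inaD, which encodes the scaffold that binds the channel, the kinase and phospholipase C, had lower ratios than trp. Its values were 1.28, 0.65, 1.42 and 0.12 in tra, a mean of 0.87 ± 0.21 (1.82-fold, adjusted p = 0.0446), with replicate 4 the lowest. Without tra replicate 3 the mean was 0.68 (adjusted p = 0.163), and the call was lost. In dsxD inaD read 1.65, 1.38, 1.10 and 0.97, a mean of 1.27 ± 0.14 (2.42-fold, adjusted p = 0.0062). XX intersexes read 1.48, 0.84, 1.32 and 0.80, a mean of 1.11 ± 0.14 (2.16-fold, adjusted p = 0.00295), and XY intersexes 0.94, 0.98, 0.87 and 0.76, a mean of 0.89 ± 0.097 (1.85-fold, adjusted p = 0.0019). In these 12 arrays every value was above 0.7. Males with fru 4-40/p14 read 0.63, 0.59, 0.58 and 0.90 for inaD, a mean of 0.67 ± 0.10 (1.59-fold, adjusted p = 0.0061), against -0.11 ± 0.12 (adjusted p = 0.627) in fru w12/Cham5.

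stops, which encodes a protein needed to keep phospholipase C at its normal amount, was called in the direction opposite to trpl in 4 mutants. It was lower in XX intersexes, at -0.28, -0.40, -0.74 and -0.51, with a mean of -0.48 ± 0.11 (1.40-fold lower, adjusted p = 0.0322). XY intersexes read -0.53, -0.39, -0.53 and -0.76, a mean of -0.55 ± 0.10 (1.47-fold lower, adjusted p = 0.0166), and fru 4-40/p14 males read -0.59, -0.73, -0.79 and -0.84, a mean of -0.74 ± 0.095 (1.67-fold lower, adjusted p = 0.00331). All 12 arrays were below 0. In fru w12/Cham5 the 3 arrays with a value read 0.94, 0.37 and 0.37, a mean of 0.56 ± 0.15 (1.48-fold, adjusted p = 0.0671), above w Berlin. The tra ratio was 0.14 ± 0.14 (adjusted p = 0.735) and the dsxD ratio -0.19 ± 0.17 (adjusted p = 0.713).

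The 3 subunits of the photoreceptor G protein gave smaller ratios. Galphaq, the alpha subunit, was measured by 2 probes that did not show the same. Probe 11523 read 0.83, 0.81, 1.17 and -0.057 in tra, with a mean of 0.69 ± 0.19 (1.61-fold, adjusted p = 0.0764), and 1.05, 1.01, 0.18 and 0.48 in dsxD, with a mean of 0.68 ± 0.17 (1.60-fold, adjusted p = 0.112). In XX intersexes it read 1.21, 1.08, 0.70 and 0.48, a mean of 0.87 ± 0.14 (1.83-fold, adjusted p = 0.0085), and in XY intersexes 0.59, 0.80, 0.36 and 0.14, a mean of 0.47 ± 0.13 (1.38-fold, adjusted p = 0.0593). The arrays of fru 4-40/p14 read 0.095, 0.32, 0.34 and 0.37, a mean of 0.28 ± 0.097 (1.21-fold, adjusted p = 0.12). Of these 20 values, 19 were above 0. Probe 8803 was called in none of the 6 mutants in heads, and its means ran from -0.24 in XY intersexes to 0.037 in fru 4-40/p14. On the 4 dsxD arrays it read 0.40, 0.67, -0.66 and -0.29, above 0 in one dye orientation and below 0 in the other. The part of the transcript that each probe matches was not available, and what the gap between the probes rests on was not tested.

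The calls of Galphaq probe 11523 depended on single arrays in all but the XX intersexes. Leaving out tra replicates 1, 2 or 3 gave means of 0.53 to 0.65 (adjusted p 0.163 to 0.26), and leaving out dsxD replicates 1, 2 or 4 gave 0.56 to 0.74 (adjusted p 0.162 to 0.348). Without XY intersex replicate 2 the mean was 0.36 (adjusted p = 0.171), and without fru 4-40/p14 replicates 2, 3 or 4 it was 0.25 to 0.27 (adjusted p 0.241 to 0.307).

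Gbeta76C, the beta subunit of the eye, was called in tra and in XX intersexes. It read 0.94, 0.36, 1.35 and 0.13 in tra, a mean of 0.69 ± 0.20 (1.62-fold, adjusted p = 0.0859), and without replicate 1 or 3 the mean was 0.48 to 0.61 (adjusted p 0.198 to 0.269). In XX intersexes the 4 values were close together, at 0.50, 0.48, 0.48 and 0.35, with a mean of 0.45 ± 0.089 (1.37-fold, adjusted p = 0.0202). Ggamma30A, the gamma subunit, read 1.09, 0.27, 0.35 and 0.48 in tra (mean 0.55 ± 0.15, 1.46-fold, adjusted p = 0.0848) and 0.48, 0.71, 0.40 and 0.46 in dsxD (mean 0.51 ± 0.10, 1.43-fold, adjusted p = 0.0585). Its values were 1.06, 0.95, 0.84 and 0.91 in XX intersexes, a mean of 0.94 ± 0.091 (1.92-fold, adjusted p = 0.00108), and 1.00, 0.74, 0.17 and 0.59 in XY intersexes, a mean of 0.62 ± 0.15 (1.54-fold, adjusted p = 0.0346). All 16 of these values were above 0. The tra call was lost without replicate 1 or 4, with means of 0.37 to 0.57 (adjusted p 0.151 to 0.289), and the dsxD call without replicate 2 or 4, with means of 0.45 to 0.53 (adjusted p 0.15 to 0.192). Neither subunit was called in fru 4-40/p14, at 0.24 ± 0.11 (adjusted p = 0.246) and 0.19 ± 0.094 (adjusted p = 0.263).

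Among the genes of lipid turnover, rdgA stood out. It encodes the diacylglycerol kinase of the photoreceptor. rdgA read 0.57, 0.87, 0.78 and 0.23 in tra, a mean of 0.61 ± 0.14 (1.53-fold, adjusted p = 0.0364), and 0.94, 0.48, 0.28 and 0.13 in dsxD, a mean of 0.46 ± 0.15 (adjusted p = 0.216). In XX intersexes it read 1.75, 1.20, 1.11 and 1.29, a mean of 1.34 ± 0.13 (2.53-fold, adjusted p = 0.000964), and in XY intersexes 1.40, 1.19, 0.71 and 1.11, a mean of 1.10 ± 0.13 (2.15-fold, adjusted p = 0.00267). All 8 intersex arrays were above 0.7. On the 3 fru 4-40/p14 arrays with a value it read 0.14, 0.51 and 0.43, a mean of 0.36 ± 0.13 (1.28-fold, adjusted p = 0.134). rdgB, a phosphatidylinositol transfer protein, was called only in XX intersexes, at 0.49, 0.24, 0.49 and 0.33, with a mean of 0.39 ± 0.095 (1.31-fold, adjusted p = 0.0466). Its other 5 mutant means were between 0.15 and 0.32, none called.

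laza, a lipid phosphate phosphatase that opposes rdgA, was lower in both fru combinations. The 3 fru 4-40/p14 arrays with a value read -0.45, -0.38 and -0.31, a mean of -0.38 ± 0.11 (1.30-fold lower, adjusted p = 0.0868), and the 3 fru w12/Cham5 arrays read -0.90, -0.33 and -0.50, a mean of -0.58 ± 0.14 (1.49-fold lower, adjusted p = 0.0514). laza was the 1 gene of the set called lower in both combinations. In tra, dsxD and both intersexes laza was not called, with means from -0.098 to 0.16.

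The arrestins, which bind active metarhodopsin and end the response, were high in the intersexes. Arr1 read 3.02, 3.28, 2.56 and 3.0 on the 4 XX arrays, a mean of 2.96 ± 0.13 (7.80-fold, adjusted p = 4.65e-05), and 1.84, 3.24, 1.85 and 2.77 on the 4 XY arrays, a mean of 2.42 ± 0.24 (5.37-fold, adjusted p = 0.00129). No other gene of the set had a mean above 2.30 in these animals. In tra Arr1 read 1.90, 0.27, 1.22 and -0.074, a mean of 0.83 ± 0.28 (adjusted p = 0.162) with 2 high and 2 low arrays, and in dsxD 0.26, 0.40, -0.11 and 0.11, a mean of 0.16 ± 0.12 (adjusted p = 0.634). In fru 4-40/p14 it read 0.11, 0.14, 0.97 and 1.08, a mean of 0.58 ± 0.18 (1.49-fold, adjusted p = 0.0939), and without replicate 3 or 4 the mean was 0.41 to 0.45 (adjusted p 0.242 to 0.292). The lower Arr1 values were in one dye orientation and the higher ones in the other. The same split held for Pdh, chp and rtp probe 4509 in these males and for trp in both intersexes.

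Arr2, the more abundant arrestin of the fly eye, was called in the intersexes alone. It read 1.91, 1.51, 1.68 and 1.44 in XX, a mean of 1.64 ± 0.11 (3.11-fold, adjusted p = 0.000215), and 0.76, 1.26, 0.62 and 1.33 in XY, a mean of 0.99 ± 0.15 (1.99-fold, adjusted p = 0.00639). In tra it read 0.27, 0.093, -0.018 and -0.12, in dsxD 0.050, 0.18, -0.13 and -0.017 and in fru 4-40/p14 -0.018, 0.048, 0.18 and 0.20. The means of these 3 were 0.057, 0.022 and 0.10, and all 12 arrays were below the lowest intersex array.

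**Figure D3:**
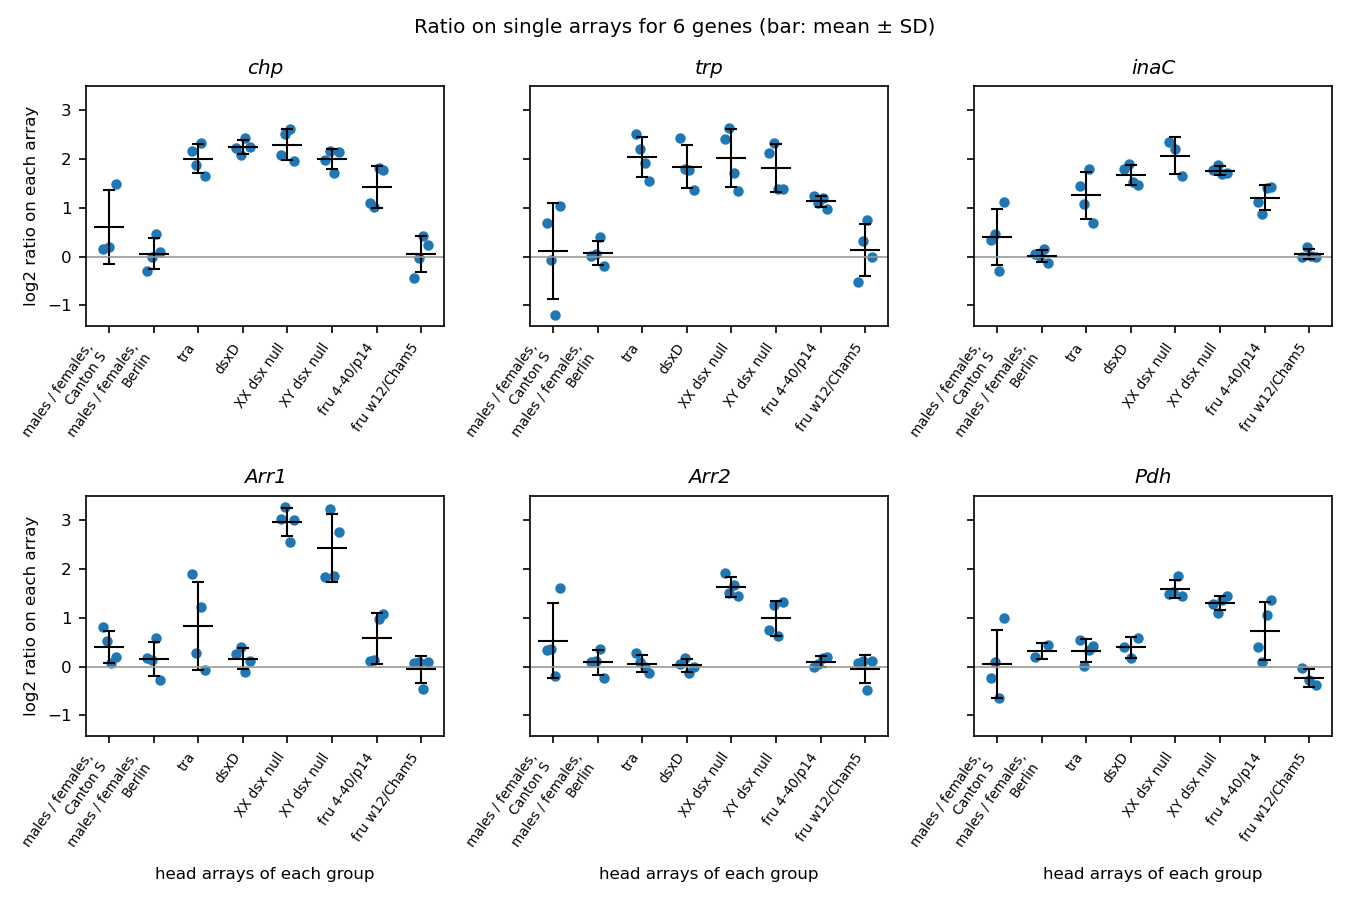
Log2 ratio on each head array (points) with the mean ± SD (bars) for chp, trp, inaC, Arr1, Arr2 and Pdh in 8 groups: males over females in Canton S and Berlin, and each mutant over its wild type. For chp, trp and inaC all arrays of the 5 mutants compared with Canton S lie above 0.6, whereas for Arr2 the 8 intersex arrays lie above all other mutant arrays.

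rdgC, the rhodopsin phosphatase, gave another pair of probes that differed. Probe 7279 read 0.93, 0.84, 0.61 and 0.18 in tra (mean 0.64 ± 0.15, 1.56-fold, adjusted p = 0.0396), 0.88, 1.09, 0.50 and 0.44 in XX intersexes (mean 0.73 ± 0.13, 1.66-fold, adjusted p = 0.0144) and 0.92, 0.52, 0.10 and 0.28 in XY intersexes (mean 0.46 ± 0.15, 1.37-fold, adjusted p = 0.0927). The XY call was lost without replicates 1, 2 or 4, with means of 0.30 to 0.52 (adjusted p 0.17 to 0.199). In dsxD probe 7279 read 1.31, 0.44 and 0.25 on 3 arrays, a mean of 0.67 ± 0.22 (adjusted p = 0.247). Probe 15689 was called in none of the mutants, with means from -0.11 to 0.35.

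Cpn encodes calphotin, a calcium-binding protein of the photoreceptor cytoplasm. It read 1.22, 0.95, 1.30 and 0.28 in tra, a mean of 0.93 ± 0.17 (1.91-fold, adjusted p = 0.0153), and 0.87, 1.13, 1.02 and 1.36 in dsxD, a mean of 1.10 ± 0.11 (2.14-fold, adjusted p = 0.00541). XX intersexes read 0.91, 0.94, 1.16 and 1.03, a mean of 1.01 ± 0.093 (2.01-fold, adjusted p = 0.000904), and XY intersexes 0.92, 0.87, 0.35 and 0.55, a mean of 0.67 ± 0.13 (1.59-fold, adjusted p = 0.0169). All 16 arrays were above 0. Cpn was not called in fru 4-40/p14, at -0.42, -0.37, 0.019 and 0.16 with a mean of -0.15 ± 0.13 (adjusted p = 0.505). Against w Berlin it was higher in fru w12/Cham5, at 0.65, 0.76, 0.63 and 0.67, a mean of 0.68 ± 0.089 (1.60-fold, adjusted p = 0.00413). Calx, the sodium/calcium exchanger, was called in no comparison, with mutant means from -0.21 to 0.27.

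Among the genes for making and handling the chromophore, ninaB, santa-maria and Pdh were called higher in both intersexes and not called in tra or dsxD. ninaB, the oxygenase that cleaves carotenoids, read 0.76, 0.57, 1.27 and 0.72 in XX intersexes (mean 0.83 ± 0.13, 1.78-fold, adjusted p = 0.00795) and 0.87, 0.74, 0.67 and 1.01 in XY intersexes (mean 0.82 ± 0.10, 1.77-fold, adjusted p = 0.00348). santa-maria, a scavenger receptor for carotenoids, read 1.25, 1.01 and 0.95 on 3 XX arrays (mean 1.07 ± 0.12, 2.10-fold, adjusted p = 0.00297) and 0.52, 0.81, 0.79 and 1.07 on the XY arrays (mean 0.80 ± 0.12, 1.74-fold, adjusted p = 0.00611). In tra and dsxD, ninaB had means of 0.089 and 0.20, and santa-maria of 0.021 and 0.13. ninaB was lower in fru w12/Cham5 than in w Berlin, at -0.36, -0.25, -0.21 and -0.33, a mean of -0.29 ± 0.090 (1.22-fold lower, adjusted p = 0.102). That call was lost without replicates 5, 7 or 8, with means of -0.31 to -0.26 (adjusted p 0.151 to 0.279).

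Pdh, a dehydrogenase of the pigment cells that surround the photoreceptors, read 1.48, 1.53, 1.85 and 1.46 in XX intersexes (mean 1.58 ± 0.10, 2.99-fold, adjusted p = 0.000215) and 1.28, 1.11, 1.37 and 1.45 in XY intersexes (mean 1.30 ± 0.10, 2.47-fold, adjusted p = 0.000454). The 8 values were all above 1. In tra it read 0.54, 0.0063, 0.34 and 0.43, a mean of 0.33 ± 0.13 (adjusted p = 0.237), and on 3 dsxD arrays 0.41, 0.17 and 0.59, a mean of 0.39 ± 0.13 (adjusted p = 0.264). Pdh also rose in fru 4-40/p14, where it read 0.40, 0.086, 1.06 and 1.37, a mean of 0.73 ± 0.20 (1.66-fold, adjusted p = 0.0605), and without replicate 3 the mean was 0.62 (adjusted p = 0.203). pinta, a retinoid-binding protein of pigment cells, was called only in XY intersexes, at 0.54, 0.32, 0.51 and 0.67, a mean of 0.51 ± 0.10 (1.42-fold, adjusted p = 0.0213). Its XX arrays ran from -1.45 to 1.25.

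ninaD, the other scavenger receptor of carotenoid uptake, was the one gene called lower in tra. Its 4 values, -1.14, -1.09, -1.07 and -1.12, were close together, with a mean of -1.11 ± 0.11 (2.15-fold lower, adjusted p = 0.000613). In dsxD it read -1.68, -0.52, 0.66 and 0.48, below 0 in one dye orientation and above 0 in the other, with a mean of -0.26 ± 0.37 (adjusted p = 0.846). On 3 fru w12/Cham5 arrays ninaD read 0.73, 1.07 and 0.93, a mean of 0.91 ± 0.12 (1.88-fold, adjusted p = 0.00589), and in the intersexes and fru 4-40/p14 it had too few values for a test. The 2 XX intersex arrays with a value read -1.20 and -0.52. ninaG, an oxidoreductase that completes the fly's hydroxylated chromophore, read 0.90, 0.57, 2.01 and 0.46 in tra (mean 0.98 ± 0.23, 1.98-fold, adjusted p = 0.0435) and 0.96, 0.50 and 0.49 on 3 dsxD arrays (mean 0.65 ± 0.15, 1.57-fold, adjusted p = 0.107). It read 1.74, 0.81 and 1.32 on 3 XY intersex arrays (mean 1.29 ± 0.19, 2.44-fold, adjusted p = 0.00972) and 1.54, 0.72, 1.53 and 1.59 in fru 4-40/p14 (mean 1.35 ± 0.16, 2.54-fold, adjusted p = 0.00219). Every one of these 14 values was above 0.4.

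Of the structural genes of the rhabdomere and the photoreceptor surface, chp had the highest ratios. It encodes chaoptin, the adhesion protein that holds microvilli together. chp read 2.18, 1.89, 2.33 and 1.66 in tra, a mean of 2.01 ± 0.14 (4.04-fold, adjusted p = 8.04e-05), and 2.24, 2.08, 2.44 and 2.25 in dsxD, a mean of 2.25 ± 0.10 (4.77-fold, adjusted p = 0.000255). XX intersexes read 2.09, 2.51, 2.62 and 1.96, a mean of 2.30 ± 0.13 (4.91-fold, adjusted p = 0.000135), and XY intersexes 1.98, 2.17, 1.72 and 2.14, a mean of 2.00 ± 0.11 (4.00-fold, adjusted p = 0.000139). All 16 arrays were above 1.6. In fru 4-40/p14 chp read 1.09, 1.01, 1.82 and 1.78, a mean of 1.42 ± 0.16 (2.68-fold, adjusted p = 0.00203), and it was the largest ratio of the set there. In fru w12/Cham5 it read -0.44, -0.021, 0.43 and 0.25, a mean of 0.053 ± 0.14 (adjusted p = 0.865) with a 95% interval of -0.27 to 0.38.

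boss, the R8 ligand that induces the R7 photoreceptor during development, read 0.98, 0.67, 1.35 and 0.73 in tra (mean 0.93 ± 0.14, 1.91-fold, adjusted p = 0.00568) and 1.18, 0.87, 0.89 and 1.14 in dsxD (mean 1.02 ± 0.11, 2.03-fold, adjusted p = 0.00541). It read 1.34, 0.91, 1.44 and 0.93 in XX intersexes (mean 1.16 ± 0.12, 2.23-fold, adjusted p = 0.00152) and 0.52, 0.76, 0.92 and 0.72 in XY intersexes (mean 0.73 ± 0.11, 1.66-fold, adjusted p = 0.00588). On 3 fru 4-40/p14 arrays it read 0.25, 0.99 and 0.88, a mean of 0.71 ± 0.17 (1.63-fold, adjusted p = 0.0434). boss was the one gene called higher in all 6 mutants, since fru w12/Cham5 read 0.21, 0.35, 0.31 and 0.31, a mean of 0.29 ± 0.090 (1.23-fold, adjusted p = 0.0921). This last call was lost without replicates 6, 7 or 8, with means of 0.28 to 0.29 (adjusted p 0.167 to 0.244).

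rtp encodes retinophilin, a rhabdomere protein, and its probes differed as well. Probe 4509 read 1.01, 0.76, 1.42 and 0.71 in tra (mean 0.98 ± 0.15, 1.97-fold, adjusted p = 0.00522) and 1.31, 0.98, 1.04 and 1.11 in dsxD (mean 1.11 ± 0.10, 2.16-fold, adjusted p = 0.00366). In XX intersexes it read 1.06, 1.05, 1.32 and 1.02, a mean of 1.11 ± 0.097 (2.16-fold, adjusted p = 0.000729), in XY intersexes 0.62, 0.84, 1.10 and 0.88, a mean of 0.86 ± 0.11 (1.81-fold, adjusted p = 0.00377), and in fru 4-40/p14 0.67, 0.24, 1.24 and 1.23, a mean of 0.85 ± 0.17 (1.80-fold, adjusted p = 0.0232). All 20 values were above 0.2. Probe 559 was called in none of these 5, with means from -0.12 to 0.24. Probe 559 was lower in fru w12/Cham5, at -0.29, -0.35, -0.35 and -0.13 with a mean of -0.28 ± 0.093 (1.21-fold lower, adjusted p = 0.117), and the call was lost without any 1 of the 4 arrays, at means of -0.33 to -0.25 (adjusted p 0.189 to 0.238).

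Next, the mutants were set against each other by testing the difference between their ratios. tra and dsxD were called different by limma for 0 of 28 probes (0.417% of all tested probes were called). The gap was -0.24 ± 0.17 (adjusted p = 0.999) for chp, with a 95% interval of -0.62 to 0.14, and 0.42 ± 0.16 (adjusted p = 0.869) for trpl, with an interval of 0.056 to 0.78. XX and XY intersexes, each against its own sex of Canton S, also were called different by limma for none of 26 probes (0.751% called). The median gap was 0.26, higher in XX, against 0.0048 over all tested probes, and for Arr2 it was 0.64 ± 0.19 (adjusted p = 0.414), with an interval of 0.22 to 1.06. At an unadjusted p under 0.05, 1 probe passed for tra against dsxD and 3 for XX against XY, and the intervals of trpl and Arr2 lay above 0 before adjustment. The share of all tested probes at that unadjusted threshold was not counted for these differences.

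Complete loss of dsx and the dsxD allele were compared directly in XX animals, a test chosen after the values were seen. Of 26 probes, 6 were called, all higher without dsx, where 5.75% of all tested probes were called and 3.95% were higher without dsx. Arr1 differed by 2.80 ± 0.18 (adjusted p = 2.68e-05), Arr2 by 1.61 ± 0.15 (adjusted p = 0.000429) and Pdh by 1.19 ± 0.17 (adjusted p = 0.00531). santa-maria differed by 0.94 ± 0.17 (adjusted p = 0.0229), rdgA by 0.88 ± 0.21 (adjusted p = 0.0518) and Ggamma30A by 0.43 ± 0.13 (adjusted p = 0.138). For all 6, each XX intersex array lay above each dsxD array. ninaB, which was not called in this test, differed by 0.63 ± 0.21 (adjusted p = 0.188). The Ggamma30A call was lost without any of 7 of the 8 arrays, with differences of 0.39 to 0.46 (adjusted p 0.191 to 0.301), and without dsxD replicate 1, 3 probes were called, since Pdh and santa-maria then had too few values. chp, trp and rtp probe 4509 were not called, with differences of 0.043 ± 0.17 (adjusted p = 0.961), 0.18 ± 0.30 (adjusted p = 0.862) and 0.0041 ± 0.14 (adjusted p = 0.993).

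**Figure D4:**
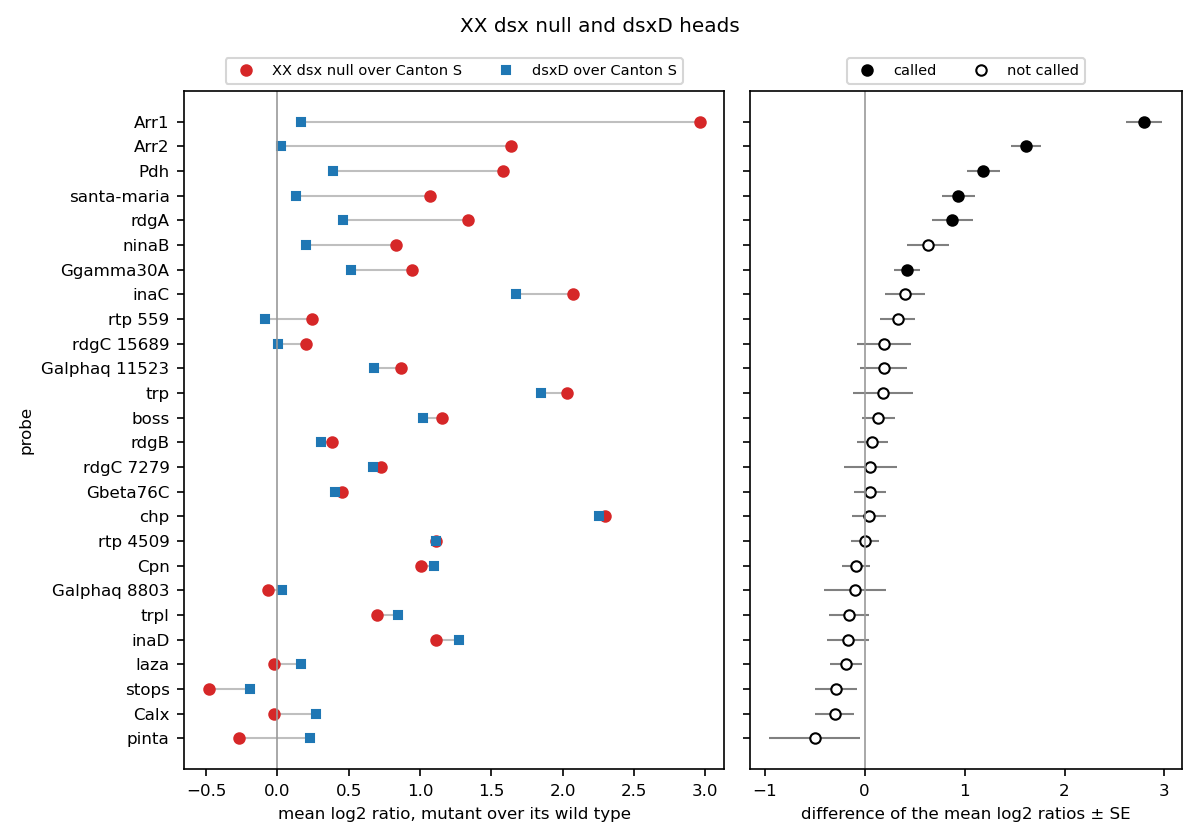
Left, mean log2 ratio over Canton S females in XX dsx null (circles) and dsxD (squares) heads for the 26 probes tested in both. Right, difference of the 2 means ± SE, with filled points for the 6 probes that limma called: Arr1, Arr2, Pdh, santa-maria, rdgA and Ggamma30A, all above 0.

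The 2 fru combinations differed for 13 of 25 probes, 11 higher in fru 4-40/p14 and 2 higher in fru w12/Cham5, each against its own wild type (23.9% of all tested probes were called). The largest gap was that of trpl, 1.94 ± 0.22 (adjusted p = 0.000234), since trpl rose in one and fell in the other. chp differed by 1.37 ± 0.23 (adjusted p = 0.00362), inaC by 1.16 ± 0.15 (adjusted p = 0.000506), ninaG by 1.01 ± 0.22 (adjusted p = 0.0126) and trp by 1.00 ± 0.23 (adjusted p = 0.0153). On the arrays of these 5 genes, the lowest fru 4-40/p14 value was above the highest fru w12/Cham5 value. Pdh, rtp probe 4509, inaD, Arr1, ninaB and rtp probe 559 had gaps of 0.96, 0.95, 0.79, 0.63, 0.55 and 0.42. In the other direction Cpn differed by -0.83 ± 0.15 (adjusted p = 0.0049) and stops by -1.30 ± 0.17 (adjusted p = 0.000908). Leaving out fru 4-40/p14 replicate 3 or 4 or fru w12/Cham5 replicate 7 or 8 ended the Arr1 call, with differences of 0.46 to 0.68 (adjusted p 0.154 to 0.253). The rtp probe 559 call was lost without fru 4-40/p14 replicate 3 or fru w12/Cham5 replicate 6, with differences of 0.32 to 0.40 (adjusted p 0.157 to 0.185). The combinations differ in alleles, in fru P2 transcripts, in w and in the wild-type stock, and these cannot be told apart here.

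**Figure D5:**
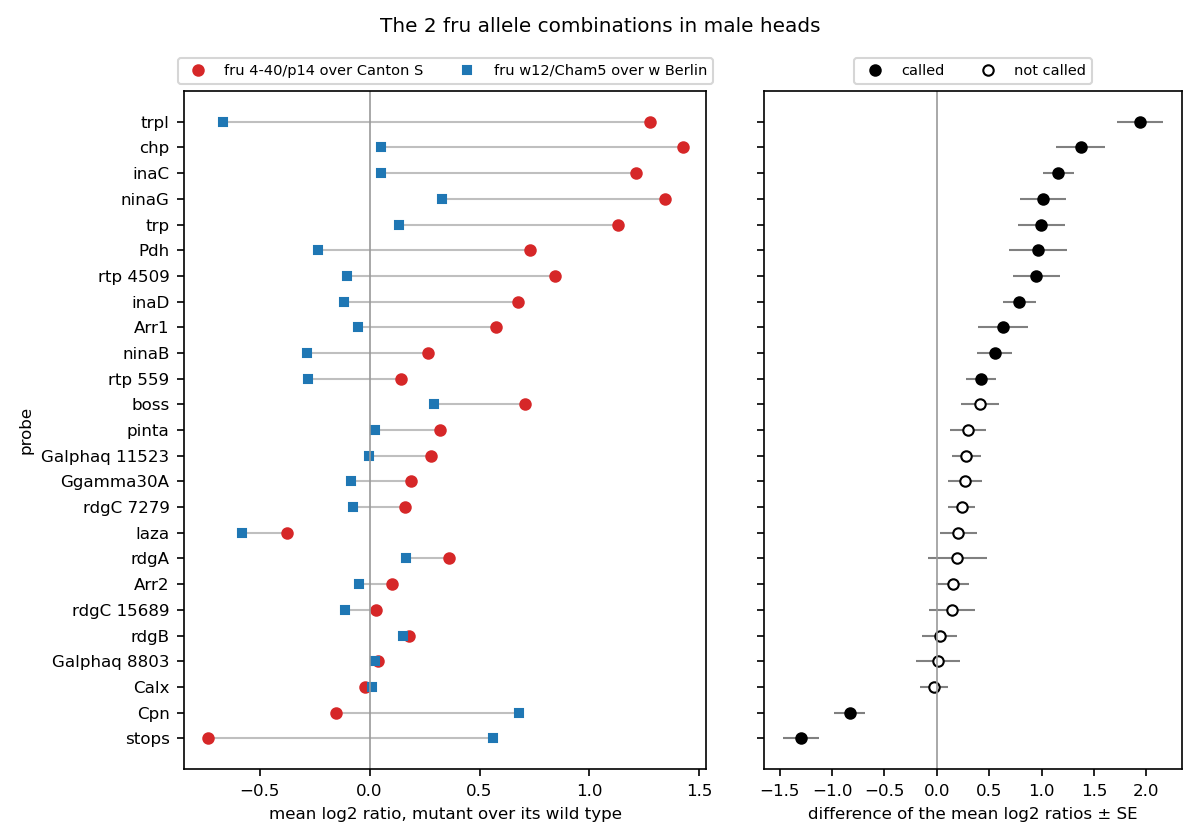
Left, mean log2 ratio of fru 4-40/p14 males over Canton S males (circles) and of fru w12/Cham5 males over w Berlin males (squares) in heads, for the 25 probes tested in both. Right, difference of the 2 means ± SE, with filled points for the 13 probes that limma called, from 1.94 for trpl to -1.30 for stops.

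Between wild-type males and females, fewer of these probes were called than in any mutant in heads. Over the 8 head arrays, 4 of 24 probes (16.7%) were called, all higher in males. Of all tested probes, 9.08% were called in either direction and 3.98% toward males. The median over the set was 0.22, with 19 of the 24 probes above 0, against 0.0042 over all tested probes. Cpn read 0.41, 0.40, 0.81 and 0.45 in Canton S and 0.23, 0.52, -0.073 and 0.18 in Berlin, a mean of 0.37 ± 0.089 (1.29-fold, adjusted p = 0.0487), with 7 of 8 arrays above 0. rtp probe 4509 read 0.31, 0.59, 0.63 and 1.02 in Canton S and 0.17, 0.27, -0.024 and -0.18 in Berlin, a mean of 0.35 ± 0.12 (1.27-fold, adjusted p = 0.143). Galphaq probe 11523 read 0.40, 0.41, 0.38 and 0.13 in Canton S and 0.11, 0.13, 0.55 and -0.040 in Berlin, a mean of 0.26 ± 0.077 (1.20-fold, adjusted p = 0.101). rdgC probe 15689 read 0.57, 0.53, 0.45 and -0.15 and 0.25, 0.51, 0.074 and -0.040, a mean of 0.27 ± 0.094 (1.21-fold, adjusted p = 0.145). Of the 4 calls, that of Cpn held when any 1 array was left out.

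The other 3 sex calls did not hold. rtp probe 4509 was lost without any 1 of the Canton S arrays or Berlin replicate 5 or 6, with means of 0.25 to 0.37 (adjusted p 0.155 to 0.295). rdgC probe 15689 was lost without Canton S replicate 1, 2 or 3 or Berlin replicate 5, 6 or 7, with means of 0.23 to 0.30 (adjusted p 0.152 to 0.306). Galphaq probe 11523 was lost without Canton S replicate 1 or 2 or Berlin replicate 7, with means of 0.22 to 0.24 (adjusted p 0.199 to 0.225). The genes with the highest ratios in the mutants were not called between the sexes: chp had a mean of 0.30 ± 0.17 (adjusted p = 0.395), trp of 0.095 ± 0.19 (adjusted p = 0.846) and inaC of 0.21 ± 0.13 (adjusted p = 0.422). In Canton S alone the median over 26 probes was 0.25 with none called, and in Berlin alone it was 0.067 over 23 probes with none called. At an unadjusted p under 0.05, 11 of 26 Canton S probes and 0 of 23 Berlin probes passed. Over all tested probes, 871 of 8430 and 1314 of 8808 passed that threshold. At an adjusted p under 0.15, 0.415% and 3.93% of all tested probes were called in the 2 strains. The difference between the strains was called for 0 of 21 probes, as for 0 of all tested probes, with rtp probe 4509 at 0.58 ± 0.17 (adjusted p = 0.796). Of the 21, 3 had an unadjusted p under 0.05, and the share of all tested probes at that threshold was not counted. Canton S replicate 3 read -1.20 for trp, -1.24 for Ggamma30A and -1.24 for rdgB, while the other 3 arrays of these genes lay between -0.072 and 1.05.

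In the CNS no probe of the set was called. Males against females gave 25 tested probes with a median of 0.015 and means from -0.32 to 0.26. None was called by limma or by the methods' t-test, and limma called 0.0602% of all tested probes. At an unadjusted p under 0.05, 0 of the 25 passed, beside 116 of 8307 over all tested probes. For trp the arrays read -0.25, -0.087, -0.27 and -0.039, with a 95% interval of -0.53 to 0.21, and for chp -0.43, -0.45, 0.25 and 0.34, with an interval of -0.51 to 0.36. chp was thus below 0 in one dye orientation and above 0 in the other. The head and CNS sex ratios of Canton S were called different for 0 of 23 probes (0.130% of all tested probes), and 5 had an unadjusted p under 0.05. The share of all tested probes at that unadjusted threshold was not counted for this difference.

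The 6 fru CNS arrays gave 25 tested probes with a median of 0.089 and none called (0.269% of all tested probes). At an unadjusted p under 0.05, 3 of 25 probes passed, beside 354 of 8538 over all tested probes. The lowest adjusted p was that of rtp probe 4509, at 0.30 ± 0.098 (adjusted p = 0.828). Here fru w12/Cham5 RNA was in Cy5 on each of its 3 arrays and fru 4-40/p14 RNA in Cy3 on each of its own, so dye and allele combination cannot be told apart. Fitted apart, the combinations had 13 of 23 and 14 of 26 probes called for fru 4-40/p14 and fru w12/Cham5, beside 60.0% and 53.8% of all tested probes. Galphaq probe 11523 was 1.28 in the first and -0.89 in the second. Head RNA was labelled directly and CNS RNA after amplification.

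Genes outside the set, from lists chosen for this purpose, were counted in the same fits. Of all tested probes, 5.04% were called higher and 4.51% lower in tra, and 11.7% and 9.74% in XX intersexes. The shares were 13.4% and 12.4% in XY intersexes, 9.74% and 10.5% in fru 4-40/p14 and 8.76% and 8.21% in fru w12/Cham5. In dsxD 3.36% were higher (5.97% in either direction), and in males over females 3.98% (9.08%). The lists are short, and several of their counts lie near these shares. Of the other genes of the photoreceptor pathway and rhabdomere, 3 higher and 1 lower of 15 tested probes were called in tra, 3 higher and 1 lower of 14 in dsxD, 4 higher and 3 lower of 14 in XX intersexes, 5 higher and 4 lower of 14 in XY intersexes, 3 higher and 2 lower of 10 in fru 4-40/p14, 0 higher and 2 lower of 16 in fru w12/Cham5 and 2 higher and 0 lower of 11 in males over females. Cds, the CDP-diacylglycerol synthase that refills the phospholipid substrate, had ratios of 0.73, 0.75, 0.99, 0.79 and 0.76 in the 5 mutants compared with Canton S, all called. Pis, the phosphatidylinositol synthase that works after it, had 2 probes, and a called one read 0.80, 0.74, 0.58, 0.52 and 0.52. The other had no higher call in tra, dsxD, XX intersexes or fru 4-40/p14. Neither Cds nor Pis was called in fru w12/Cham5, at -0.18 and -0.12. prom, the prominin that keeps rhabdomeres apart, was higher in XX and XY intersexes, at 1.77 and 1.95, and in fru 4-40/p14, at 0.56. Amph, an amphiphysin that shapes membranes, was lower in all 5, from -0.62 in tra to -0.38 in fru 4-40/p14. Xport-A, a chaperone of TRP and rhodopsin, was lower in fru w12/Cham5, at -0.80, and Rab32, a GTPase of pigment granule traffic, at -0.31. Rab32 was higher in tra, dsxD, XX and XY intersexes, at 0.61, 1.23, 0.65 and 0.55. Not every lower call of this list is named here. Its median was 0.15 in tra, 0.14 in dsxD, 0.083 in XX intersexes and -0.16 in XY intersexes. In fru 4-40/p14 and fru w12/Cham5 the list had medians of 0.14 and -0.057. In XY intersexes 5 of its 14 tested probes lay above 0 and 9 below.

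The histamine list, the transmitter system of photoreceptors, was mixed. Its probes were called higher for 1 of 5 in tra, 1 of 5 in dsxD, 4 of 6 in XX intersexes, 2 of 5 in XY intersexes, 1 of 4 in fru 4-40/p14 and 2 of 5 in fru w12/Cham5, and lower for 2 of 4 in fru 4-40/p14, and 0 were called for any other head comparison or direction. CarT, the carcinine transporter by which photoreceptors recycle histamine, was called higher at 0.98 in tra, 0.70 in dsxD, 0.58 in XX intersexes, 0.46 in XY intersexes and 0.67 in fru 4-40/p14, and was 0.078 in fru w12/Cham5, not called. In fru 4-40/p14 Hdc, the histidine decarboxylase, at -0.31, and ine, a transporter, at -0.43, were called lower. Hdc was called higher in XX intersexes, at 0.48. e, which makes carcinine, was called higher in XX intersexes (0.93), XY intersexes (0.79) and fru w12/Cham5 (0.86).

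The list of eye fate factors was mixed as well. Its probes were called higher for 1 of 9 in males over females, 2 of 13 in tra, 1 of 9 in dsxD, 1 of 11 in XX intersexes, 1 of 7 in XY intersexes and 1 of 11 in fru 4-40/p14, and lower for 1 of 11 in XX intersexes, 2 of 7 in XY intersexes, 1 of 11 in fru 4-40/p14 and 1 of 10 in fru w12/Cham5. Pph13, a transcription factor of photoreceptor differentiation, was called higher in tra (0.70), XX intersexes (0.58), XY intersexes (0.66) and fru 4-40/p14 (0.32), and had 0.23 in dsxD, not called. gl, a transcription factor needed for photoreceptor development, was called higher in tra, at 0.67, and lower in fru w12/Cham5, at -0.42. salm, a factor of inner photoreceptor fate, was called lower in XX intersexes (-0.59) and fru 4-40/p14 (-0.36) and higher in males than females (0.40). dve and pros, also factors of photoreceptor or cone cell fate, were called lower in XY intersexes, at -0.41 and -0.31. The medians of the list were 0.061 in tra, 0.046 in dsxD, -0.13 in XX intersexes, -0.048 in XY intersexes, -0.023 in fru 4-40/p14 and -0.077 in fru w12/Cham5.

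Of the lens and cone cell list, 2 probes were tested, and they went opposite ways in the intersexes. Cpr72Ec, a cuticle protein of the corneal lens, had 3.33 in tra, 2.63 in dsxD, 3.91 in XX intersexes, 3.55 in XY intersexes and 3.06 in fru 4-40/p14 against Canton S and -2.18 against w Berlin, all called and each larger in size than that of any gene of the set in the same comparison. It was -0.047 between the sexes in heads, not called. retinin, another lens protein, was called lower in XX and XY intersexes, at -0.45 and -0.43, and was not called in tra, dsxD and the fru combinations, at -0.30, -0.10, -0.064 and -0.021.

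Markers of other cells were also counted in the head comparisons, beside the shares of all probes given above, and counts not given were 0. Neuronal markers were called higher for 4 of 8 in males over females and 1 of 8 in fru w12/Cham5 and lower for 1 of 8 in dsxD, 4 of 8 in XX intersexes, 5 of 8 in XY intersexes and 5 of 8 in fru 4-40/p14. Glial markers were called higher for 2 of 7 in males over females and 1 of 6 in XX intersexes and lower for 1 of 7 in tra, 1 of 7 in dsxD, 1 of 6 in XX intersexes, 2 of 7 in XY intersexes and 3 of 7 in fru 4-40/p14. Eye pigment genes were called higher for 1 of 9 in males over females, 1 of 14 in tra, 3 of 15 in dsxD, 6 of 13 in XX intersexes and 4 of 15 in XY intersexes and lower for 1 of 14 in tra, 1 of 15 in dsxD, 1 of 13 in XX intersexes, 1 of 15 in XY intersexes, 2 of 13 in fru 4-40/p14 and 3 of 13 in fru w12/Cham5. In XX and XY intersexes and fru 4-40/p14 the medians of the neuronal markers were -0.23, -0.39 and -0.36, against -0.016 in tra and -0.18 in dsxD.

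Fat body markers, which include the yolk protein genes, were called higher for 2 of 6 in XX intersexes and 6 of 6 in XY intersexes and lower for 4 of 6 in males over females, 4 of 6 in tra, 3 of 6 in dsxD, 3 of 6 in XX intersexes and 3 of 4 in fru w12/Cham5. Muscle markers were called higher for 1 of 6 in XX intersexes, 1 of 6 in fru 4-40/p14 and 4 of 6 in fru w12/Cham5 and lower for 2 of 6 in males over females, 1 of 6 in dsxD, 2 of 6 in XX intersexes, 3 of 6 in XY intersexes, 1 of 6 in fru 4-40/p14 and 1 of 6 in fru w12/Cham5. Haemocyte markers were called higher for 2 of 4 in XX intersexes and 1 of 2 in XY intersexes and lower for 1 of 3 in tra, 1 of 3 in dsxD, 2 of 3 in fru 4-40/p14 and 1 of 3 in fru w12/Cham5. The part of any of these shifts in the photoreceptor ratios was not tested.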

How the data were processed

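RNA from whole heads (32 arrays) or dissected CNS (10 arrays) was hybridised in pairs to spotted oligonucleotide arrays. The authors scanned them with a GenePix 4100A, removed poor features by eye, kept features with most pixels above background and normalised each array by lowess in Bioconductor. Versions are not given in the sources used here. The deposited values are log2 ratios, and no intensities were used. Probes were named through the platform's gene table: of 12913 probes with a gene, 12273 matched the annotation by gene number, 116 by accession and 524 not. Ratios were turned to male over female and mutant over wild type by the dyes in the labels. Titles of some fru arrays name another wild type than their channel strains, as given above, and the channels were followed.

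Means were tested against 0 with limma 3.58.1 in R 4.3.3 over all probes with values on at least 75% of arrays, with Benjamini-Hochberg adjustment. Differences between groups used the same fit, and 95% intervals its moderated spread. The script was tested on simulated data. No pair of arrays was a duplicate (highest r 0.86). Alternatives were the methods' t-test, centring each array on its median, a stricter threshold of 0.05, values on all arrays, dye as a covariate, leaving out each array, and the strains or fru combinations apart. The members and lists were chosen with earlier results of these data known. Every member was named, and per-array values were given for those called in more than 1 comparison or over 2-fold.

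Arrays of 2 groups with the same replicate number deviated from their group means together, with r of 0.195 to 0.477 for tra and dsxD, 0.320 to 0.505 for XX and XY intersexes and 0.230 to 0.456 for XX intersexes and dsxD, so a fit with the replicate number as a block was made too. Arrays of different number but the same dye orientation gave r up to 0.489, so number and dye orientation are not fully apart here. Canton S heads and CNS gave -0.210 to 0.240 and were not paired. With the replicate block, 0 probes of the set were called for tra against dsxD, 0 for XX against XY intersexes and 7 for XX intersexes against dsxD. The share of all probes called in that fit was not counted.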

Additional observations from a re-analysis of the deposited data

Results flagged for a closer look

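A value far from the others was sought for called probes in 86 groups of 4 arrays, where chance gives about 1 in 20. The median over the set was tested separately in each group. Of the 10 values flagged, 1 was such a median and is not among the 86. In Canton S heads, males over females, these were replicate 4 of Galphaq probe 11523 at 0.13 and replicate 3 of Cpn at 0.81. In XX intersexes, Gbeta76C read 0.35 on replicate 4 and rtp probe 4509 read 1.32 on replicate 3. In fru 4-40/p14 heads, ninaG read 0.72 on replicate 2, trpl 0.58 and Galphaq probe 11523 0.095 on replicate 1, and inaD 0.90 on replicate 4. In fru w12/Cham5 heads, trpl read -0.33 on replicate 6. In XY intersexes, the median over the photoreceptor probes was 0.80 on replicate 2, against 0.63 on the next array.

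The ratios of the fru combinations differed by limma's test of the difference, fru 4-40/p14 minus fru w12/Cham5, by 0.55 for ninaB, 1.01 for ninaG, 1.00 for trp, 1.94 for trpl, 1.16 for inaC, 0.79 for inaD, 0.63 for Arr1, 1.37 for chp, 0.42 for rtp probe 559, 0.95 for rtp probe 4509 and 0.96 for Pdh. Cpn at -0.83 and stops at -1.30 differed in the other direction. XX intersexes minus dsxD gave 2.80 for Arr1, 1.61 for Arr2, 0.43 for Ggamma30A, 0.88 for rdgA, 0.94 for santa-maria and 1.19 for Pdh.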

How the results depend on the processing

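No called value of a named probe changed sign under any alternative, and 65 of 111 named results kept their call under each alternative that could be fitted. With the methods' t-test, 2 probes were called for the sex difference in heads in place of 4, 3 in tra in place of 15, 6 in dsxD in place of 11, 8 in fru 4-40/p14 in place of 14 and 3 in fru w12/Cham5 in place of 8. At an adjusted p under 0.05 these counts were 1 for sex, 9 for fru 4-40/p14 and 3 for fru w12/Cham5. Centring the arrays left 2 for sex, and Canton S alone and Berlin alone left 0 each. Requiring values on all arrays left 5 in fru w12/Cham5. With dye as a covariate, 17 were called in dsxD and 5 in fru CNS, and the fru CNS combinations alone gave 13 for fru 4-40/p14 and 14 for fru w12/Cham5 against 0 together. In XX and XY intersexes the methods' t-test called 18 and 16 probes, of which 18 and 15 were among the 20 called by limma in each. Apart from the strains and the fru combinations alone, the share of all tested probes was not counted under these alternatives or without 1 array.

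Without 1 array the counts ran from 1 (without Canton S replicate 1) to 7 (without Berlin replicate 8) for sex in heads, 12 to 15 in tra, 8 to 11 in dsxD, 18 to 21 in XX and 17 to 19 in XY intersexes, 8 (without replicate 3) to 12 in fru 4-40/p14 and 2 (without replicate 7) to 5 in fru w12/Cham5. The tra and dsxD difference gave 0 to 1, the XX intersex and dsxD difference 3 to 6 and the fru difference 10 to 14. A probe with 3 values could not be refitted without one of them. The cause of these shifts was not tested. With 3 or 4 arrays a group, their number limits the precision, and the files give no signal over background.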
